A study of Homo sapiens with 6 samples.

Results

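The matrix-degrading and ectodomain-shedding metalloproteases and their inhibitors were examined in BT-549 cells, a mesenchymal cell line derived from a triple-negative breast cancer (TNBC). The members were all genes of the expression table whose symbol is ADAM, ADAMTS, ADAMTSL, MMP or TIMP followed by a number (and, for MMP, an optional letter). This rule found 74 of 25545 genes: 22 ADAM, 19 ADAMTS, 5 ADAMTSL, 24 MMP and 4 TIMP genes. The cells had been transfected with a control siRNA (CsiRNA) or with an siRNA against NEAT1 (NEAT1siRNA), and RNA was collected at 48 h. NEAT1 is the long noncoding RNA that forms the scaffold of nuclear paraspeckles, and the comparison asked which transcripts depend on it. Each group had 3 libraries, all from the same cell line. The sample titles of both groups also carry the prefix tet, which the protocols in the labels do not explain; they describe siRNA transfection and name no inducer, so it cannot be said here whether the cells held a tet construct. No second NEAT1 siRNA was among the libraries, so an effect of the siRNA sequence other than on NEAT1 cannot be told apart from the loss of NEAT1.

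MMPs are zinc-dependent endopeptidases that cut collagens, fibronectin, laminins and other matrix proteins. Most are secreted, and the membrane-type MMPs are held at the cell surface. Catalytic ADAMs are membrane-anchored proteases that release the extracellular part of growth factors, receptors and adhesion molecules, a process called shedding. Of the 22 ADAM members, 8 lack protease activity, and ADAM5 and ADAM6 are non-coding. Among the MMP members, MMP23A is annotated as a pseudogene. ADAMTS enzymes are secreted relatives that bind the matrix and cleave proteoglycans, procollagens and other matrix proteins, and the ADAMTSL proteins share their ancillary domains but have no protease domain. TIMPs are small secreted proteins that block the active site of MMPs and, to differing degrees, of ADAM and ADAMTS enzymes. In TNBC these families are known for their part in invasion through matrix and in the supply of soluble EGF receptor ligands.

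Levels are given as TPM, a transcript's share of the library that the authors scaled for gene length, so they can be set side by side between genes. The libraries held between 15787271 and 20342838 reads, recovered from the deposited values. NEAT1 measured 13.4, 7.68 and 10.8 TPM in the CsiRNA libraries and 4.36, 2.96 and 2.73 TPM in the NEAT1siRNA libraries, with no overlap, and fell by 1.41 on the log2 scale (SE 0.14, limma adjusted p = 1.21e-07). The mesenchymal markers VIM, CDH2, FN1 and ZEB1 were at 13.5 TPM or more in every library, while ESR1, PGR, EPCAM and CDH1 reached at most 0.168 TPM. The fifth marker expected to be low, ERBB2, measured 5.76 to 6.36 TPM over the 6 libraries. Of 9 markers of leukocytes, endothelium and smooth muscle, CD68 alone reached 1 TPM, at 23.2 to 29.2 TPM. CD14 ranged from 0.0301 to 0.369 TPM, and PTPRC, CD3E, ITGAM, PECAM1, CDH5, MYH11 and DES reached at most 0.0580 TPM. RNA levels were measured in bulk, so fewer expressing cells and less RNA per cell cannot be told apart in any value below.

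BT-549 cells made a limited part of the family. Of the 74 members, 59 were above 0 in at least 1 library, 36 reached 0.1 TPM and 25 had a mean of at least 1 TPM over the 6 libraries, the minimum for testing. The highest levels belonged to TIMP1 with a mean of 152.9 TPM, the broad soluble inhibitor, and to ADAM9 with 149.2 TPM, a membrane-anchored meltrin. MMP14 (membrane-type 1 MMP, a collagenase at the cell surface) followed with 90.6 TPM and TIMP2 (which both inhibits MMP14 and bridges it to pro-MMP2) with 73.7 TPM. These 4 genes together held between 66.3% and 68.3% of the summed TPM of all members in every library, and this share did not differ beyond the spread, at 67.4% ± 1.04 (SD, n = 3) in the CsiRNA and 67.9% ± 0.591 (SD, n = 3) in the NEAT1siRNA libraries. ADAM12 (37.8 TPM), ADAM10 (37.0 TPM), MMP16 (25.8 TPM), ADAM17 (23.6 TPM), ADAM15 (15.4 TPM) and ADAMTS6 (11.3 TPM) completed the 10 highest means. In this order, TIMP1 and ADAM9 overlapped between libraries, as did ADAM12 and ADAM10, whereas MMP14 and TIMP2 exchanged places between the groups.

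**Figure D1:**
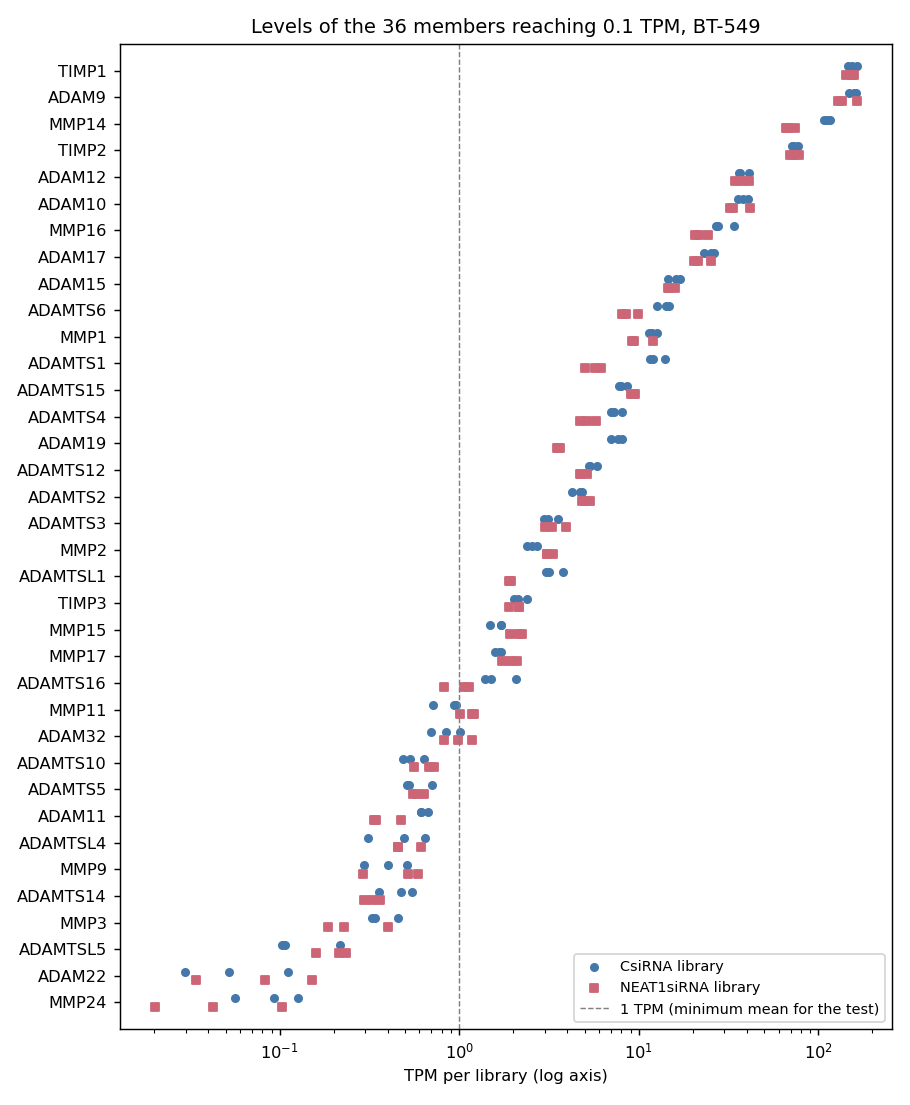
TPM per library on a log axis for the 36 members that reached 0.1 TPM, ordered by their mean over 6 libraries; circles are CsiRNA and squares NEAT1siRNA libraries, and the dashed line marks 1 TPM. TIMP1, ADAM9, MMP14 and TIMP2 lie at the top, and 25 members have means of at least 1 TPM.

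After NEAT1 silencing, 8 of the 25 members tested fell and 0 rose past an adjusted p of 0.05 (limma on log2(TPM + 1), adjusted over all genes tested). At an unadjusted p under 0.05, 2 members were higher, MMP2 and MMP15. With voom of limma on recovered reads 3 members rose past the threshold, these 2 and ADAMTS15. In that setting 1186 of all 10721 genes tested were called higher. The 8 lower members were ADAMTS1, ADAM19, MMP14, ADAMTS6, ADAMTSL1, ADAMTS4, ADAMTS16 and MMP16. They make up 32% of the members tested, where 8.98% of all 10721 genes tested were called lower and 4.99% higher. The median log2 fold change of the 25 members was -0.10, against -0.04 over all genes tested. No member passed the minimum through the CsiRNA group alone, and 1 member, MMP11, had a mean of at least 1 TPM in the NEAT1siRNA group only. By groups that did not overlap, all NEAT1siRNA libraries lay below all CsiRNA libraries for 9 members, the 8 called and ADAMTS12, where 19.3% of all genes tested did so. They lay above for 6 members, ADAMTS15, ADAMTS2, MMP2, MMP11, MMP15 and MMP17, where 11.0% of all genes did so. Over all genes tested, 535 were called higher and 963 lower, and this split depended on the scaling: with each library centred on its median it was 1158 higher and 954 lower. All 8 members stayed called lower with centring. With 1 library left out, 6 of the 8 were called in every case, and the exceptions, MMP16 and ADAMTS16, are given with their values below.

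**Figure D2:**
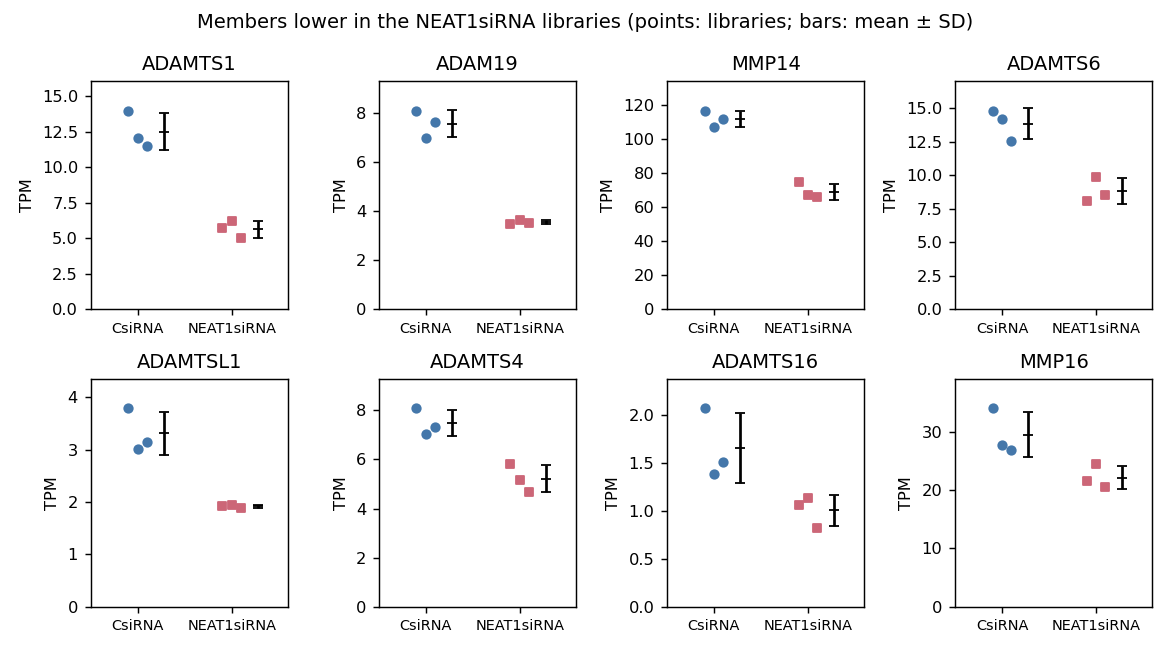
TPM per library (circles CsiRNA, squares NEAT1siRNA; linear axes from 0) with the mean and SD of 3 libraries for the 8 members called lower, in the order of their log2 fold change. In each panel every NEAT1siRNA library lies below every CsiRNA library, from ADAMTS1 at 45.0% of the CsiRNA mean to MMP16 at 75.0%.

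Among the membrane-type MMPs, the 2 most abundant fell. MMP14 measured 117, 107 and 112 TPM in the CsiRNA libraries and 74.6, 67.2 and 65.9 TPM in the NEAT1siRNA libraries. The groups were far apart, with NEAT1siRNA at 61.8% of the CsiRNA mean (111.9 ± 4.80 against 69.2 ± 4.68 TPM, SD, n = 3 each). Its log2 fold change was -0.69 (SE 0.09, limma adjusted p = 6.67e-06). MMP16 (membrane-type 3 MMP) measured 34.0, 27.7 and 26.9 TPM with CsiRNA and 21.6, 24.4 and 20.5 TPM with NEAT1siRNA. The first CsiRNA library was the highest of the 6 and the groups lay close to each other without overlap. Its log2 fold change of -0.40 (SE 0.10, limma adjusted p = 0.0094) was no longer past the threshold without CsiRNA replicate 1 (-0.29, adjusted p = 0.11) or without NEAT1siRNA replicate 3 (-0.34, adjusted p = 0.0709). MMP15 (membrane-type 2 MMP), by contrast, measured 1.71, 1.48 and 1.70 TPM with CsiRNA and 2.14, 1.92 and 2.24 TPM with NEAT1siRNA. Its log2 fold change of 0.24 (SE 0.10) had a 95% interval from 0.04 to 0.44 and missed the threshold (limma adjusted p = 0.103). MMP17, a membrane-type MMP with a lipid anchor, had a mean of 1.65 ± 0.065 TPM in CsiRNA and 1.92 ± 0.18 TPM in NEAT1siRNA libraries (SD, n = 3 each) and was not called (adjusted p = 0.375). MMP24 and MMP25 reached at most 0.126 TPM. MMP14 so made up 69.5% ± 1.30 of the summed TPM of all MMPs in the CsiRNA libraries and 62.4% ± 2.79 in the NEAT1siRNA libraries (SD, n = 3 each), with no overlap.

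In the meltrin branch of the ADAMs, ADAM19 fell and its relatives ADAM9 and ADAM12 did not pass the test. ADAM19 (meltrin beta), a protease known to process neuregulin, measured 8.09, 6.99 and 7.63 TPM with CsiRNA and 3.48, 3.65 and 3.52 TPM with NEAT1siRNA. The NEAT1siRNA libraries were nearly equal to each other, at 46.9% of the CsiRNA mean, and the log2 fold change was -0.91 (SE 0.09, limma adjusted p = 2.19e-07). ADAM12 (meltrin alpha) measured 41.0, 36.8 and 36.2 TPM with CsiRNA and 37.3, 41.0 and 34.3 TPM with NEAT1siRNA. The groups overlapped almost wholly, and the 95% interval of its log2 fold change ran from -0.21 to 0.17. ADAM9 measured 161, 158 and 147 TPM with CsiRNA and 129, 165 and 135 TPM with NEAT1siRNA. The second NEAT1siRNA library was the highest of all 6 and the other two the lowest, so the groups overlapped (log2 fold change -0.13, 95% interval -0.33 to 0.06, limma adjusted p = 0.389). Without NEAT1siRNA replicate 2, ADAM9 was called lower (-0.24, adjusted p = 0.0387).

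The main sheddases were not called. ADAM10, which starts the cleavage of NOTCH receptors after ligand binding, measured 40.7, 38.3 and 35.7 TPM with CsiRNA and 33.3, 41.6 and 32.2 TPM with NEAT1siRNA. ADAM17, which releases TNF and most EGF receptor ligands, measured 26.3, 25.3 and 22.9 TPM with CsiRNA and 20.4, 25.2 and 21.3 TPM with NEAT1siRNA. As with ADAM9, the second NEAT1siRNA library was the high one for both, and the 95% intervals of the log2 fold change ran from -0.31 to 0.10 for ADAM10 and from -0.35 to 0.05 for ADAM17. ADAM15, an ADAM with an integrin-binding disintegrin domain, had a mean of 15.9 ± 1.19 TPM with CsiRNA and 15.0 ± 0.751 TPM with NEAT1siRNA (SD, n = 3 each; adjusted p = 0.656). In the second NEAT1siRNA library, the deviation of genes from their group mean fell with GC content (Spearman rho -0.73 across 10106 genes, which are not independent), and in the first it rose with it (rho 0.68). In the third NEAT1siRNA library rho was 0.13, and in the CsiRNA libraries it was -0.21, -0.35 and 0.48, in the order of replicates. Whether this trend accounts for the high values in the second NEAT1siRNA library was not tested. The canonical transcripts of ADAM9, ADAM10 and ADAM17 have 38.7%, 37.5% and 42.1% GC. Among the members called lower, MMP16 has 36.4%, ADAMTS6 42.5%, MMP14 58.9% and ADAM19 53.7%. ADAMTS1 has 48.6%, ADAMTS4 51.4%, ADAMTS16 54.3% and ADAMTSL1 54.7%. With the trend of each library on GC content and transcript length removed, ADAM9 was called lower (-0.13, adjusted p = 0.0257), as was MMP1 (-0.20, adjusted p = 0.0177), ADAM10 and ADAM17 were not, and the 8 members called before were called again. That setting called 17.2% of all genes lower and 16.6% higher.

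The secreted ADAMTS proteases held the largest drop of all members tested. ADAMTS1, which cleaves versican and aggrecan, measured 14.0, 12.0 and 11.5 TPM with CsiRNA and 5.72, 6.19 and 4.999 TPM with NEAT1siRNA. NEAT1siRNA libraries averaged 45.0% of the CsiRNA level, with a log2 fold change of -1.03 (SE 0.10, limma adjusted p = 9.42e-08). ADAMTS4 (aggrecanase-1) measured 8.07, 7.03 and 7.31 TPM with CsiRNA and 5.79, 5.16 and 4.68 TPM with NEAT1siRNA, also without overlap (log2 fold change -0.45, SE 0.10, limma adjusted p = 0.00267). ADAMTS15, another enzyme that cleaves versican, lay the other way: 8.54, 7.74 and 7.97 TPM with CsiRNA and 9.48, 9.43 and 9.10 TPM with NEAT1siRNA. All NEAT1siRNA libraries were the higher ones, but the log2 fold change of 0.19 (95% interval 0.00 to 0.38) missed the threshold (limma adjusted p = 0.184). Of the other 4 proteoglycan-cleaving members, ADAMTS5 ranged from 0.513 to 0.707 TPM over both groups, ADAMTS8 reached at most 0.0347 TPM, and ADAMTS9 and ADAMTS20 had no read in any library.

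ADAMTS6, linked to fibrillin microfibrils, measured 14.8, 14.2 and 12.6 TPM with CsiRNA and 8.07, 9.88 and 8.49 TPM with NEAT1siRNA. It fell by 0.60 on the log2 scale (SE 0.10, limma adjusted p = 0.000153), to 63.6% of the CsiRNA mean. ADAMTS16, which can cleave fibronectin, measured 2.07, 1.39 and 1.51 TPM with CsiRNA and 1.06, 1.13 and 0.824 TPM with NEAT1siRNA. The first CsiRNA library stood above the other two, and the call (log2 fold change -0.40, SE 0.11, limma adjusted p = 0.0138) did not hold without CsiRNA replicate 1 (-0.29, adjusted p = 0.123) or without NEAT1siRNA replicate 3 (-0.33, adjusted p = 0.0969). ADAMTSL1 (punctin), a matrix protein without a protease domain, measured 3.79, 3.02 and 3.15 TPM with CsiRNA and 1.92, 1.95 and 1.89 TPM with NEAT1siRNA. The NEAT1siRNA libraries were again nearly equal, at 57.9% of the CsiRNA mean (log2 fold change -0.56, SE 0.10, limma adjusted p = 0.000313). ADAMTS12 had a mean of 5.50 ± 0.313 TPM with CsiRNA and 4.85 ± 0.232 TPM with NEAT1siRNA (SD, n = 3 each) and was not called (adjusted p = 0.316). The procollagen N-proteinases ADAMTS2 and ADAMTS3, which trim fibrillar procollagens, had log2 fold changes of 0.12 (95% interval -0.07 to 0.31) and 0.06 (-0.15 to 0.27) and were not called.

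**Figure D3:**
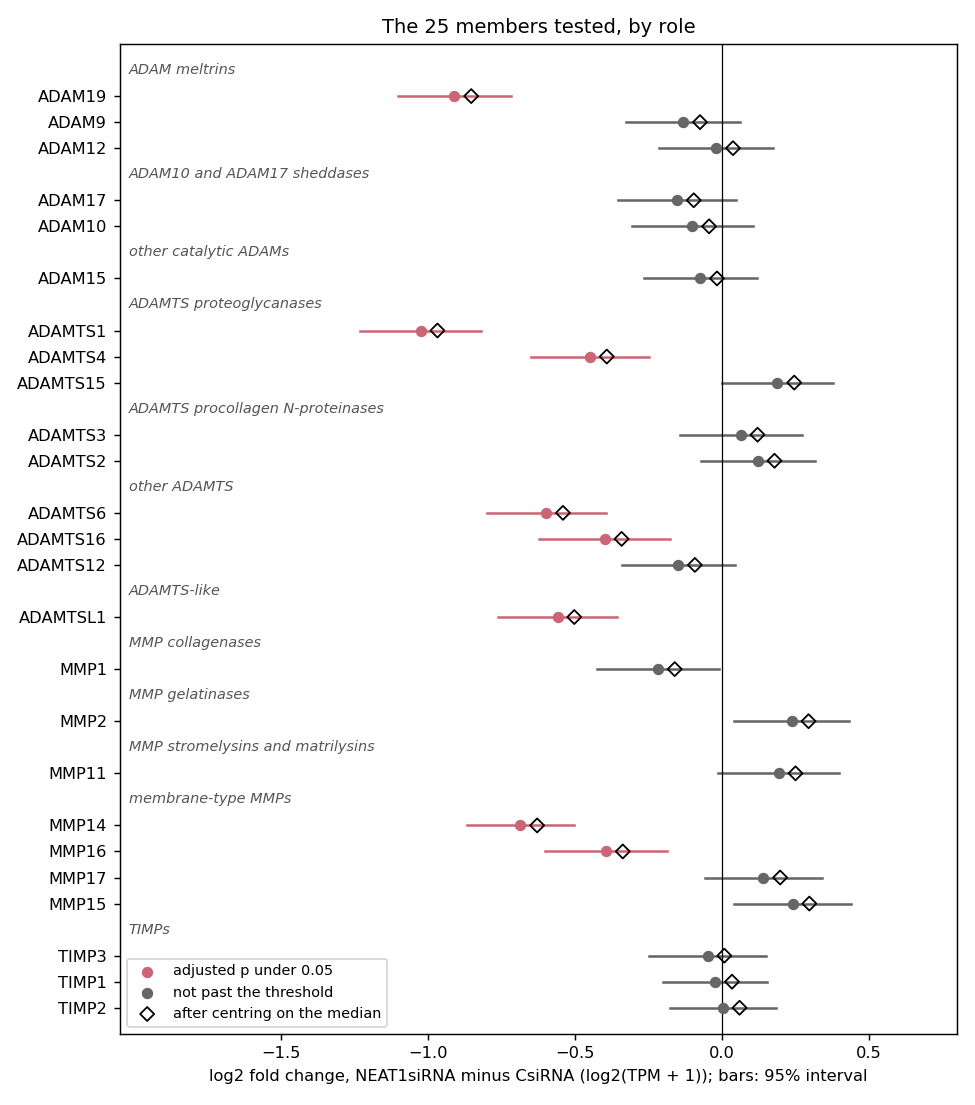
Log2 fold change (NEAT1siRNA minus CsiRNA, on log2(TPM + 1)) with its 95% interval for the 25 members tested, grouped by role; filled red points passed an adjusted p of 0.05, grey points did not, and open diamonds are the values after each library was centred on its median. The 8 red points lie between -1.03 for ADAMTS1 and -0.40 for MMP16, and the 3 tested TIMPs lie near 0.

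The inhibitors did not move beyond their spread. TIMP1 measured 154, 145 and 163 TPM with CsiRNA and 154, 157 and 143 TPM with NEAT1siRNA. TIMP2 measured 76.9, 72.8 and 71.2 TPM with CsiRNA and 78.3, 73.4 and 69.7 TPM with NEAT1siRNA. TIMP3, the matrix-bound inhibitor that also acts on ADAM and ADAMTS enzymes, measured 2.39, 2.03 and 2.11 TPM with CsiRNA and 2.16, 2.14 and 1.89 TPM with NEAT1siRNA. The groups overlapped for all 3, and the 95% intervals of the log2 fold change ran from -0.20 to 0.15 for TIMP1, from -0.18 to 0.18 for TIMP2 and from -0.25 to 0.15 for TIMP3. TIMP4 had 1 read in a single NEAT1siRNA library.

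Of the secreted MMPs, none was called. MMP1 (interstitial collagenase) measured 12.6, 11.9 and 11.4 TPM with CsiRNA and 9.46, 12.0 and 9.17 TPM with NEAT1siRNA. The second NEAT1siRNA library lay among the CsiRNA libraries, and the log2 fold change was -0.22 (95% interval -0.43 to -0.01, limma adjusted p = 0.159); without NEAT1siRNA replicate 2 it was -0.33 (adjusted p = 0.009). MMP2 (gelatinase A) measured 2.55, 2.37 and 2.69 TPM with CsiRNA and 3.10, 3.06 and 3.35 TPM with NEAT1siRNA. All NEAT1siRNA libraries were the higher ones, with a log2 fold change of 0.24 (95% interval 0.04 to 0.43) that missed the threshold (limma adjusted p = 0.0981). MMP11 (stromelysin-3) had a mean of 0.869 ± 0.135 TPM with CsiRNA and 1.13 ± 0.104 TPM with NEAT1siRNA (SD, n = 3 each; adjusted p = 0.217). MMP9 (gelatinase B) ranged from 0.294 to 0.514 TPM with CsiRNA and from 0.292 to 0.589 TPM with NEAT1siRNA, and MMP3 (stromelysin-1) from 0.325 to 0.458 TPM and from 0.186 to 0.403 TPM. Both lay under the minimum for testing, and their groups overlapped.

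The upward differences of MMP2, MMP15 and ADAMTS15 depended on the scaling. With each library centred on its median they were 0.29 (limma adjusted p = 0.0345), 0.30 (adjusted p = 0.0436) and 0.24 (adjusted p = 0.0163) and passed the threshold, where 10.8% of all genes tested were called higher.

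Ratios of 2 members within a library do not depend on a single scale factor per library, but a trend on GC content can still enter them. MMP16 has 36.4% and TIMP2 53.7% GC, and ADAMTS1 has 48.6% and ADAMTS15 60.3%. The effect of this on the ratios was not tested. Pairs were formed after their values had been seen, so they are given without a test. MMP14 over TIMP2 was 1.52, 1.47 and 1.57 in the CsiRNA libraries and 0.952, 0.916 and 0.945 in the NEAT1siRNA libraries. The ratio lay above 1 in every CsiRNA library and below 1 in every NEAT1siRNA library. MMP16 over TIMP2 was 0.442, 0.380 and 0.378 with CsiRNA and 0.276, 0.333 and 0.294 with NEAT1siRNA, without overlap. ADAM19 over ADAM12 was 0.197, 0.190 and 0.211 with CsiRNA and 0.0933, 0.0891 and 0.103 with NEAT1siRNA, or 47.7% of the CsiRNA mean. ADAMTS1 over ADAMTS15 was 1.64, 1.56 and 1.45 with CsiRNA and 0.603, 0.657 and 0.549 with NEAT1siRNA. The higher TPM of the pair so changed from ADAMTS1 to ADAMTS15, though ADAMTS15 itself was not called. Whether a ratio lies above or below 1 depends on the gene lengths behind the TPM, which are not given in the sources used here. ADAM9 over ADAM12 and ADAM17 over ADAM10 overlapped between the groups, at 4.10 ± 0.188 against 3.80 ± 0.309 and at 0.650 ± 0.00992 against 0.626 ± 0.0297 (SD, n = 3 each).

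**Figure D4:**
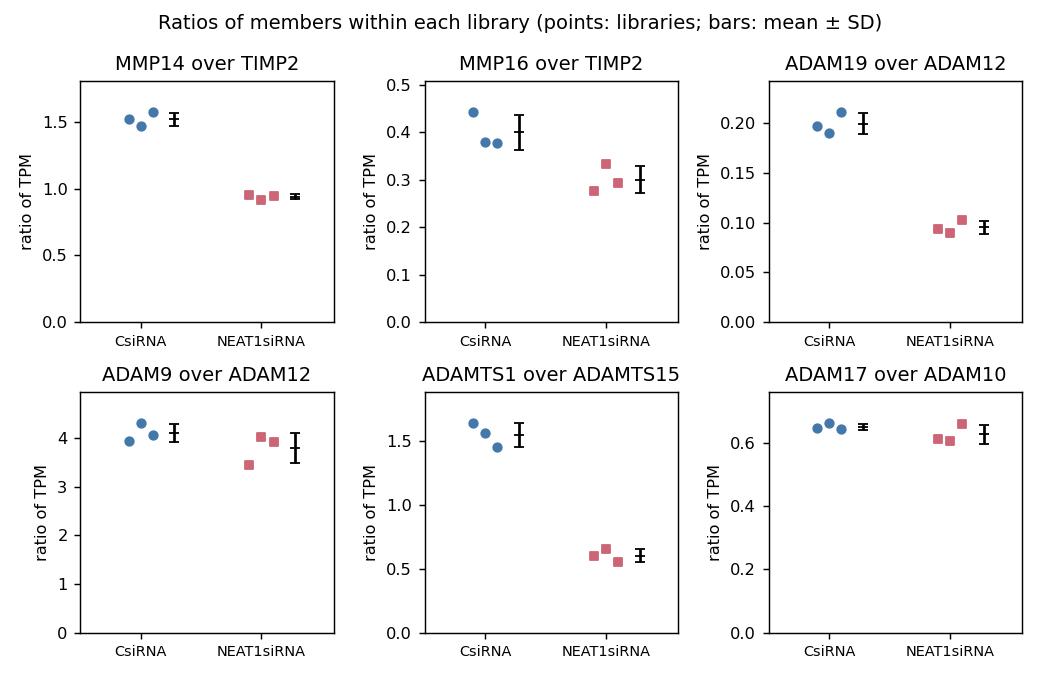
Ratio of the TPM of 2 members within each library (linear axes from 0; circles CsiRNA, squares NEAT1siRNA; bars mean and SD of 3 libraries). The groups lie apart for MMP14 over TIMP2, MMP16 over TIMP2, ADAM19 over ADAM12 and ADAMTS1 over ADAMTS15, and overlap for ADAM9 over ADAM12 and ADAM17 over ADAM10.

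By family, the summed level of all MMPs was 161 ± 9.12 TPM with CsiRNA and 111 ± 5.34 TPM with NEAT1siRNA (SD, n = 3 each), without overlap. MMP14 and MMP16 carried this drop: the other MMPs summed to 19.8 ± 0.824 TPM and 19.6 ± 1.68 TPM, with overlap. Of the 7 MMPs tested, 2 were called lower, where 8.98% of all genes tested were. For 4 of the 7, every NEAT1siRNA library lay above every CsiRNA library, where 11.0% of all genes tested did so. MMP11 is among these 4 and reached the minimum for testing through its NEAT1siRNA level. The median log2 fold change of the 7 was 0.14. The summed ADAMTS level was 58.6 ± 4.19 TPM and 45.0 ± 2.52 TPM, also without overlap. The summed ADAM level overlapped, at 282 ± 13.7 TPM and 258 ± 29.9 TPM, and so did the summed TIMP level, at 230 ± 8.68 TPM and 228 ± 10.9 TPM.

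The members below the minimum for testing were counted one by one. Of these 49, 15 had no recovered read in any library, which allows up to 3 reads over the 6 libraries, and 23 were above 0 but under 0.1 TPM in every library, with at most 42 reads in total. The 15 include the testis-associated ADAM2, ADAM29 and ADAM30, the neutrophil collagenase MMP8, the enamel protease MMP20, and MMP23A. MMP23B, the near-identical copy of MMP23A, had 2 reads in all, and how the counting split reads between the copies was not tested, so both values are uncertain. The other 11 reached 0.1 TPM: ADAM32, ADAMTS10, ADAMTS5, ADAM11, ADAMTSL4, MMP9, ADAMTS14, MMP3, ADAMTSL5, ADAM22 and MMP24. Just under the minimum, ADAM32 had libraries between 0.698 and 1.17 TPM, and just above it MMP11 had libraries between 0.714 and 1.21 TPM. ADAM11, which lacks protease activity, was the one of these 11 whose groups did not overlap, at 0.673, 0.609 and 0.609 TPM with CsiRNA and 0.344, 0.473 and 0.334 TPM with NEAT1siRNA. In a fit of all genes without a minimum, its adjusted p was 0.0619 (limma), and none of the 49 passed 0.05. Among those under 0.1 TPM, ADAM28 and MMP19 did not overlap either, with NEAT1siRNA higher. Their means were 0.0249 and 0.00404 TPM with CsiRNA and 0.0570 and 0.0232 TPM with NEAT1siRNA. Over all genes tested, groups did not overlap for 19.3% with NEAT1siRNA lower and for 11.0% with NEAT1siRNA higher.

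The genes lie on many chromosomes, and neighbours did not always share a level. The coordinates that follow are those of GENCODE genes on GRCh38. MMP14 lies at chr14:22836560-22849041, ADAM19 at chr5:157395534-157575775 and ADAMTS6 at chr5:65148738-65481920. ADAMTS1 (chr21:26835755-26845409) lies 72512 bases from ADAMTS5, which stayed under 1 TPM in both groups. ADAMTS15, at 9.34 ± 0.206 TPM with NEAT1siRNA (SD, n = 3), lies 20035 bases from ADAMTS8, which reached at most 0.0347 TPM. Of the 9 MMP genes in the cluster on chromosome 11 (MMP7, MMP20, MMP27, MMP8, MMP10, MMP1, MMP3, MMP12 and MMP13), MMP1 was above 1 TPM and MMP3 reached 0.458 TPM, while the other 7 stayed under 0.1 TPM.

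Promoter sequences are shown for the lower members that have an entry in the RefSeq promoter table (GRCh38.p14), MMP14, ADAM19, ADAMTS6 and ADAMTSL1. ADAMTS1, ADAMTS4, ADAMTS16 and MMP16 have no entry there. Each sequence runs 5′ to 3′ on the strand of the gene, from 250 bases before the start of transcription to 50 after it. Capitals mark matches to any of 5 short motifs, searched on both strands: the AP-1 motif TGAGTCA, the cAMP response element TGACGTCA, the TEAD motif GGAATG, the GC box GGGCGG and the TATA motif TATAAA, none of which overlap in the sequences shown.
MMP14 (chr14:22836335-22836634, plus strand): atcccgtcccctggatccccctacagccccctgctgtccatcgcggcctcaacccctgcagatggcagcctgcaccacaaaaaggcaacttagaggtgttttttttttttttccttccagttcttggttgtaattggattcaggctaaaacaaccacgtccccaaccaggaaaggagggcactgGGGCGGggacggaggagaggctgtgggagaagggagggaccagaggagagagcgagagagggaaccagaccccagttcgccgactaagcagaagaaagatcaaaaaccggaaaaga
ADAM19 (chr5:157575726-157576025, minus strand): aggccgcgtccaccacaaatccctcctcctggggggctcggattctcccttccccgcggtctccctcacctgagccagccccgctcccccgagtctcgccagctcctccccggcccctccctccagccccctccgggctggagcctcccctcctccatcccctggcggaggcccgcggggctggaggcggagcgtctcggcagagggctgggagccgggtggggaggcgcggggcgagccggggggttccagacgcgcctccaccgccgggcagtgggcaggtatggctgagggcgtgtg
ADAMTS6 (chr5:65481871-65482170, minus strand): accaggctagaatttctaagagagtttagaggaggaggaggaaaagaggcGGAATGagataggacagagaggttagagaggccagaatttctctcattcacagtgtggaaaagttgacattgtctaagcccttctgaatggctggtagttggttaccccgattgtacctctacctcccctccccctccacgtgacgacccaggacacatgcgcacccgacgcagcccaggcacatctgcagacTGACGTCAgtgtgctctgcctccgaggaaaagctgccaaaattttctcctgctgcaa
ADAMTSL1 (chr9:18473903-18474202, plus strand): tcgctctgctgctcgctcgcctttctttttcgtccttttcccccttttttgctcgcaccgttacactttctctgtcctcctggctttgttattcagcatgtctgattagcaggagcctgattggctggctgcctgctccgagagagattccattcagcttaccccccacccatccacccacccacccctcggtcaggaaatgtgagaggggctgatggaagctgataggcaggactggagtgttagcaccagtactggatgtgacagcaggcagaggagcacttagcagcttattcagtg

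MMP14 held 1 GC box, 66 bases before the start, and ADAMTS6 held a cAMP response element that begins 7 bases before the start and a TEAD motif 200 bases before it. ADAM19, with 75.7% GC in this window, and ADAMTSL1, with 54.0%, held none of the 5 motifs. The ADAMTSL1 window lies inside the GENCODE gene, whose first base is far upstream. A GC box was found in the windows of 1 of these 4 lower members and of 11 of the 11 members that were tested, not called and listed, where 45.0% of all 35116 promoters held it. The cAMP response element was found in 1 of the 4 and 0 of the 11 (1.85% of all promoters), the TEAD motif in 1 and 2 (14.0%), and the AP-1 and TATA motifs in 0 and 0 (4.95% and 11.5%). Over all 44 members with an entry, the AP-1 motif was found in MMP7 only. These are descriptions of letters in a fixed window, and binding was not measured.

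Genes that act with these proteases were read from 5 lists with 71 entries, of which 44 were tested, 14 fell (31.8%) and 2 rose. These counts are again to be read against 8.98% called lower and 4.99% called higher among all genes tested. The members of ADAM10 and ADAM17 complexes split: of 6 tested, TSPAN5, a tetraspanin that escorts ADAM10, fell by 0.30 on the log2 scale (limma adjusted p = 0.0309), TSPAN14, another ADAM10 tetraspanin, rose by 0.29 (adjusted p = 0.0405), and 4 were not called, with a median log2 fold change of -0.04. The iRhom genes RHBDF1 and RHBDF2, partners of ADAM17, had means under 2 TPM in both groups and were among those not called. Without CsiRNA replicate 2, neither tetraspanin was past the threshold (TSPAN5 -0.29, adjusted p = 0.107; TSPAN14 0.26, adjusted p = 0.165), and the same held without CsiRNA replicate 1 or without NEAT1siRNA replicate 1 or 3. TSPAN14 was also not called without CsiRNA replicate 3 (0.28, adjusted p = 0.104). Of the proprotein convertases, which remove the prodomain of ADAMs, ADAMTSs and membrane-type MMPs, FURIN and PCSK7 were tested and neither was called (log2 fold changes -0.07 and 0.07). Of 5 other inhibitors and inducers tested, CTSB (cathepsin B) fell by 0.30 (adjusted p = 0.0115), and RECK, a membrane-anchored MMP inhibitor, TFPI2, CST3 and BSG, an inducer of MMPs, were not called (median of the 5 genes -0.03). The CTSB call was lost without CsiRNA replicate 1 (-0.28, adjusted p = 0.0796), without CsiRNA replicate 2 (-0.29, adjusted p = 0.0608) and without NEAT1siRNA replicate 3 (-0.28, adjusted p = 0.0722).

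Among 17 tested genes whose proteins are shed by ADAM10 or ADAM17, 8 fell and 0 rose (limma), with a median log2 fold change of -0.18. At an unadjusted p under 0.05, also 0 were higher. Of all genes tested, 8.98% were called lower and 4.99% higher. HBEGF, an EGF receptor ligand, measured 9.45, 9.84 and 9.20 TPM with CsiRNA and 5.64, 6.01 and 5.89 TPM with NEAT1siRNA (log2 fold change -0.62, SE 0.09, limma adjusted p = 4.83e-05). ICAM1, a leukocyte adhesion receptor, measured 15.4, 15.2 and 14.6 TPM with CsiRNA and 10.3, 9.68 and 9.97 TPM with NEAT1siRNA (log2 fold change -0.55, adjusted p = 0.000148). NRG1 (neuregulin, also a substrate of ADAM19) measured 21.8, 18.7 and 17.7 TPM with CsiRNA and 13.6, 15.1 and 13.0 TPM with NEAT1siRNA (log2 fold change -0.45, adjusted p = 0.00254). The groups did not overlap for any of these, nor for PTPRF, a receptor tyrosine phosphatase (log2 fold change -0.41, adjusted p = 0.00437). The 4 further lower genes were NOTCH1, NOTCH2, CDH2 and CD44. Some list genes under the minimum for testing, and so outside these counts, lay the other way. TNFRSF1B, the second TNF receptor, measured 0.452, 0.527 and 0.533 TPM with CsiRNA and 1.12, 1.37 and 1.06 TPM with NEAT1siRNA, and JAG1, a NOTCH ligand, 0.480, 0.610 and 0.554 TPM and 0.945, 1.32 and 1.11 TPM. They were picked out after their values were seen, and in the fit without a minimum their adjusted p was 0.0202 and 0.0364 (limma).

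Among 14 tested matrix substrates, 4 fell and 1 rose, with a median log2 fold change of -0.16, where 8.98% of all genes tested were called lower and 4.99% higher. VCAN (versican), the proteoglycan cut by ADAMTS1, ADAMTS4 and ADAMTS15, measured 21.0, 16.5 and 16.6 TPM with CsiRNA and 11.3, 11.2 and 9.83 TPM with NEAT1siRNA. It fell by 0.69 on the log2 scale (SE 0.10, limma adjusted p = 4.83e-05), so versican and 2 of its 3 tested proteases were lower in the same libraries. THBS1 (thrombospondin-1), an abundant matrix protein, measured 403, 353 and 339 TPM with CsiRNA and 244, 251 and 228 TPM with NEAT1siRNA (log2 fold change -0.59, adjusted p = 4.03e-05). FN1 (fibronectin) fell by 0.47 (adjusted p = 0.00116) and COL3A1 rose by 0.31 (adjusted p = 0.0298), and COL5A1 was the remaining lower gene. The COL3A1 call was lost with any library left out other than NEAT1siRNA replicate 1, with log2 fold changes between 0.23 and 0.35 and adjusted p between 0.0501 and 0.115. The fibrillar collagen genes COL1A1 and COL1A2, substrates of MMP14 and MMP1, had log2 fold changes of -0.24 (adjusted p = 0.0845) and -0.18 (adjusted p = 0.172) and were not called, and the cartilage and brain proteoglycans ACAN, BCAN and NCAN, targets of aggrecanases, reached at most 0.0246 TPM.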

How the data were processed

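RNA-seq was analysed for 6 libraries of BT-549 cells, 3 transfected with CsiRNA and 3 with NEAT1siRNA, grouped by their titles. Per the paper's methods, RNA was isolated from cells cultured in triplicate, stranded mRNA libraries were prepared, and reads were aligned to GRCh38 with STAR and compared with DESeq2. The read counter, its strand setting and the gene lengths are not given in the sources used here. The authors deposited TPM per gene and library, which sum to 1000000 in each library. The authors also deposited a comparison table with a mean normalized count over the 6 libraries (a signal), log2 fold changes with their errors, a test score, p-values and adjusted p-values. Only the mean normalized count was used from that table.

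TPM keep no depth, so reads per gene and library were recovered from TPM together with the mean normalized count. Of the nonzero values, 99.8% were within 0.05 of a whole read where that mean was below 5, and 17.1% where it was 500 or more. Limits from reads cover counting error only. In every library 4 short RNAs (RN7SK, RN7SL1, RN7SL2 and RPPH1) took 64.4% to 68.1% of the TPM. Within a library this lowers the TPM of all other genes alike, but the share differed between libraries. It was lowest in CsiRNA replicate 1 and highest in NEAT1siRNA replicate 3. The median log2(TPM + 1) of the genes tested was 3.44 and 3.23 in these libraries, the highest and the lowest. The main fit did not rescale the libraries for this.

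The 10721 genes averaging 1 TPM or more were tested on log2(TPM + 1) with limma 3.58.1 in R 4.3.3 (lmFit, eBayes with trend, two-sided), with p-values adjusted by the Benjamini-Hochberg method over all genes tested and a threshold of 0.05. A fold change on this scale understates the change of low genes. The p-values rest on a spread between these cultures that eBayes moderates with the spread of other genes, not on that of each gene alone. They so depend on the genes included: the limma adjusted p of MMP14 was 6.67e-06 here and 0.0116 with no filter on TPM. Groups of 3 allow no exact permutation p below 0.1, so single ratios and sums were given without a test. Coordinates, GC content and transcript length came from GENCODE v44 on GRCh38, matched by symbol, and 94.3% of the genes tested had a GC and length value. The study names annotation release 74, so gene models may differ. The fit was tested on simulated data with known changes. Those data were drawn with the same dispersion for all genes and without trends on GC content or length, so that test does not cover such trends. Members and lists were chosen with earlier results of these data known. Named in the text were NEAT1, every member past the threshold, the 10 members with the highest mean TPM, a fixed core of MMPs, ADAMs, ADAMTS1 and TIMPs, and of each other list up to 4 genes past the threshold with the largest change. Further genes (such as MMP15, ADAMTS15 and ADAM11) were named after their values were seen. The 18 alternatives changed the pseudocount, filter, scaling, variance trend, threshold, block, GC correction and input (voom of limma on recovered reads) or left out 1 library.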

Additional observations from a re-analysis of the deposited data

How the results depend on the processing

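All 8 lower members kept their sign under every alternative that tested them. ADAMTS1, ADAM19, MMP14, ADAMTS6 and ADAMTSL1 were past the threshold in every alternative that tested them. For ADAMTS4 the exceptions were no filter on TPM (adjusted p = 0.0619) and a required change of 0.5 on the log2 scale. ADAMTS16 and MMP16 were also lost without CsiRNA replicate 1 or NEAT1siRNA replicate 3, and ADAMTS16 at an adjusted p of 0.01. The cause was not tested.

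Members called lower numbered 5 with no filter and with a change of at least 0.5. Members called higher numbered 3 with centring, quantile normalization or voom on recovered reads. All genes called higher then numbered 1158, 1082 and 1186, in that order. After GC and length correction, 4 members (with ADAMTS2) were called higher without or with the replicate block, where 1680 and 1655 of all genes were. All genes past the threshold numbered 314 with a change of at least 0.5, 719 at an adjusted p of 0.01, 505 with no filter, 2466 with voom, 3423 with GC and length correction and 3334 with that correction and the block, against 1498. With 1 library left out, they ranged from 759 (without CsiRNA replicate 1; 838 without NEAT1siRNA replicate 3) to 2083 (without NEAT1siRNA replicate 2), members called lower from 6 to 10, and members called higher stayed at 0. Other pathway genes past the threshold numbered 4 with a change of at least 0.5, 7 at an adjusted p of 0.01 and 6 with no filter, against 16, and 7 (without CsiRNA replicate 1 or NEAT1siRNA replicate 3) to 16 with 1 library left out. A fit with replicate number as a block called 1640 genes, the same 8 members and 16 other pathway genes. Same-numbered libraries deviated from their group means with r of -0.03, 0.25 and -0.11, and differently numbered ones with r from -0.40 to 0.40. Deviations from a mean of 3 libraries constrain each other, so these values cannot show whether libraries were paired. The labels give only a replicate number.

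The uncalled changes that turned sign were near 0. ADAM12 was 0.079 after GC and length correction with or without the block, 0.036 centred, 0.015 with quantile normalization and 0.029 with voom, and ranged from -0.084 to 0.041 with 1 library left out. TIMP1 was 0.017 after GC and length correction with or without the block, 0.033 centred and 0.026 with voom, with a range from -0.065 to 0.019. TIMP3 was 0.038 after GC and length correction with or without the block and 0.0068 centred. With 1 library left out, TIMP2 ranged from -0.041 to 0.041 and ADAMTS3 from -0.020 to 0.13. Depth limits the members under 1 TPM, where single reads set the values.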
